A study of Mus musculus with 12 samples.

Results

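Each let-7 precursor gives 2 mature strands, and the strands examined here are those from its 3p arm, the passenger strands. They are the miRNAs whose listed name starts with mmu-let-7 and ends with -3p. The names fill 10 lines of the count sheet, and since let-7a-1-3p and let-7c-2-3p have the same sequence and the same counts, they form 9 strands of the 1060 different miRNAs listed. Small RNA was sequenced from the basolateral amygdala (BLA) of 12 male C57BL/6J mice of 10 weeks, 3 mice in each of 4 groups. The control group (C) went through the tone procedure of the memory formation group with 0 foot shocks. The memory formation group (F) received 3 pairings of a tone with a foot shock of 0.6 mA. The extinction group (E) received the same conditioning and, 24 h later, sessions of 18 tones with no shock. The retrieval-extinction group (RE) received the same conditioning and a single retrieval tone, and entered extinction 1 h after it. The BLA was collected 1 h after training had ended, and that of C together with that of F. E and RE were thus sampled more than 24 h after conditioning, later than C and F, so comparisons between these differ in time as well. The design note of the series calls the profiles retinal, whereas the labels and the methods name the amygdala.

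In miRNA biogenesis, Dicer cuts the hairpin into a duplex, 1 strand of the duplex is loaded into an Argonaute protein as the guide, and the other, the passenger, is mostly discarded and degraded. A guide recognizes its targets mainly through the seed, bases 2 to 8. The let-7 family is a conserved family that accumulates as cells differentiate and is abundant in the adult brain. Its guide strands come from the 5p arm and repress genes such as Lin28a and Hmga2. The 3p strand of the same hairpin is therefore a tag of the precursor that does not carry the family's seed.

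The mature strands are shown because the family's common seed lies on 1 arm only. They are RefSeq sequences of GRCm38.p6, read 5′ to 3′, with bases 2 to 8 in capitals. Each of the 9 passenger strands and of the 8 guide strands they pair with had a RefSeq entry with the listed sequence. The 5p strand of let-7d is followed by the passenger strands in the order of their level in the BLA.
mmu-let-7d-5p: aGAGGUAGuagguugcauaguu
mmu-let-7d-3p: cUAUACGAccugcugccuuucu
mmu-let-7a-1-3p and mmu-let-7c-2-3p: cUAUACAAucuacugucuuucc
mmu-let-7e-3p: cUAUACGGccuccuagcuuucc
mmu-let-7b-3p: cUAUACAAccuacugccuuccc
mmu-let-7i-3p: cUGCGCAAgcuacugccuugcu
mmu-let-7c-1-3p: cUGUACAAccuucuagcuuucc
mmu-let-7f-1-3p: cUAUACAAucuauugccuuccc
mmu-let-7f-2-3p: cUAUACAGucuacugucuuuc
mmu-let-7g-3p: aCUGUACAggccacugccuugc

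All 8 guide strands had the seed GAGGUAG. Among the 9 passenger strands 7 different seeds were found. The seed UAUACAA was common to let-7a-1-3p, let-7b-3p and let-7f-1-3p, and miR-98-3p, the passenger strand of the let-7 family member miR-98, had it too. Of the passenger strands 8 begin with C and 1, let-7g-3p, with A, whereas 7 of the guide strands begin with U and 1, let-7d-5p, with A. Compared position by position from the first base, passenger strands differed from each other at a median of 6 bases (range 1 to 18 over 36 pairs). Guide strands differed at a median of 3 (range 1 to 6 over 28 pairs). The values of 16 to 18 all belong to pairs with let-7g-3p, which is listed from 1 base earlier than let-7c-1-3p. The comparison did not allow for such a shift, so these values overstate the difference. Among the other pairs the largest value was 11. The closest passenger strands are let-7a-1-3p and let-7f-2-3p, which differ at 1 of 21 bases, and let-7b-3p and let-7f-1-3p, which differ at 2 of 22. Tags of these strands can be confused, so the lower member of each pair is uncertain. Guide strands, some of which differ at 1 base, can be confused as well. Their counts, used below for the passenger shares, carry this uncertainty too.

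The precursors lie at several loci. The let-7d, let-7f-1 and let-7a-1 hairpins lie in exon sequence of the lincRNA 6720427I07Rik on the minus strand of chromosome 13, with 1714 bases between let-7d and let-7f-1 and 261 between let-7f-1 and let-7a-1. The let-7c-2 and let-7b hairpins lie 621 bases apart in exon sequence of the non-coding transcript Lncppara on chromosome 15. The let-7c-1 hairpin lies in an intron of Mir99ahg, the host transcript of miR-99a, on chromosome 16. Introns of protein-coding genes hold let-7e (Spaca6, chromosome 17), let-7g (Wdr82, chromosome 9) and let-7f-2 (Huwe1, chromosome X). The let-7i hairpin lies in an exon of D630033A02Rik, annotated as a transcribed processed pseudogene, on chromosome 10. The hairpins of let-7d and let-7f-1 are shown because they lie in the same transcript and yet stood far apart in the level of their passenger strand. Both arms are in capitals, the 5p arm first.
let-7d, chr13:48536012-48536114, minus strand: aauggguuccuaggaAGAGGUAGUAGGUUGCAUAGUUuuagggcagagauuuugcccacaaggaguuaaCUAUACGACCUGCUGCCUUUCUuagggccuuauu
let-7f-1, chr13:48537829-48537917, minus strand: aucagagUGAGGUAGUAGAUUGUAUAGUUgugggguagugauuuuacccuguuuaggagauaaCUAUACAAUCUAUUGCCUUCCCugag

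The libraries held 1093194 to 2353896 listed tags, of which the let-7 5p strands took 25.7% to 48.5%. On the first principal component of the 414 tested miRNAs outside the let-7 family, which carried 63.2% of the variance, 4 libraries stood apart from the other 8. Each group has a single such library (replicate 2 of C and of E, replicate 1 of F and replicate 4 of RE), and they are called the 4 libraries here. The neuron markers miR-124-3p, miR-9-5p and miR-128-3p summed to 62813 to 103931 counts per 1000000 (CPM) and were above 0 in every library. The summed endothelial markers (both arms of miR-126a) were at 4920 to 6792 CPM in the 4 libraries and at 9841 to 11574 CPM in the other 8. The 5p arm held only 3.56% of the miR-126a tags, so this sum follows the 3p arm. The 2 arms did not change alike, since the log2 ratio of 3p to 5p tags differed by -1.94 between the sets. The summed leukocyte and microglia markers (3 of 3 listed strands of miR-142a and miR-223) were at 7.18 to 26.6 against 32.9 to 82.5 CPM. The liver marker miR-122-5p was at 15.7 to 20.7 against 5.56 to 15.2 CPM, and the other marker lists overlapped between the sets. Their part in the results was not tested. The labels give no batch, and the sets are defined from the data, so differences between them are given as a description without a test.

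The passenger strands made up a small and uneven part of the let-7 tags. Together they reached 636 to 1440 CPM (counts per 1000000 tags of the library size after TMM scaling), against 256419 to 517847 CPM for the guide strands. They were 0.225% to 0.363% of all let-7 tags of a library. This share was 0.292% ± 0.0211 in C, 0.265% ± 0.0367 in F, 0.303% ± 0.0707 in E and 0.282% ± 0.0118 in RE (mean ± SD, n = 3). The 4 libraries, at 0.277% to 0.320%, lay within the range of the other 8.

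The most abundant passenger strand was mmu-let-7d-3p, with 80.2% of all passenger tags (76.3% to 82.7% by library) and 611 to 1566 tags in a library. Its level was 683, 725 and 678 CPM in C, 990.1, 485 and 679 CPM in F, 765, 1069.7 and 519 CPM in E, and 668, 1162 and 625 CPM in RE. The highest library of each group was the 1 of the 4 libraries in it, and the groups overlapped. The group means were 696 ± 25.97 CPM in C, 718 ± 255 in F, 785 ± 276 in E and 818 ± 298 in RE (SD, n = 3).

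The strand next in level, mmu-let-7a-1-3p, stands for the passenger of both let-7a-1 and let-7c-2 and took 9.20% of the passenger tags. It was measured at 80.7, 72.8 and 94.6 CPM in C, 90.5, 71.4 and 96.4 CPM in F, 83.4, 91.5 and 62.3 CPM in E, and 102, 113 and 81.6 CPM in RE. With a coefficient of variation of 16.3% over the 12 libraries it varied least of the 9 strands. The passenger of let-7e, mmu-let-7e-3p, whose hairpin is near those of miR-99b and miR-125a, was at 32.7, 68.0 and 28.3 CPM in C, 90.5, 41.3 and 29.3 CPM in F, 35.5, 71.7 and 24.1 CPM in E, and 29.0, 83.0 and 28.1 CPM in RE. Here each of the 4 libraries was higher than each of the other 8.

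The remaining strands were low. The mean over the 12 libraries was 14.997 CPM for mmu-let-7b-3p (9 to 41 tags in a library), 12.6 for let-7i-3p (12 to 27 tags), 12.02 for mmu-let-7c-1-3p (7 to 49 tags), 6.84 for mmu-let-7f-1-3p (5 to 23 tags) and 4.34 for let-7f-2-3p (3 to 12 tags). At these depths the counting error alone is large. The lowest, let-7g-3p, had 6, 0 and 2 tags in C, 0, 2 and 4 in F, 3, 0 and 7 in E, and 2, 0 and 2 in RE, so that it was at 0 in all 4 libraries that stand apart and in no other. Its guide, let-7g-5p, was the most abundant let-7 strand, at a mean of 117896 CPM. The 4 libraries held 0 let-7g-3p tags beside 826782 let-7g-5p tags, which allows a share of up to 0.000363% (3 tags), and the other 8 held 28 beside 1350987, a share of 0.00207% (95% Wilson interval 0.00143% to 0.00300%). Such intervals and limits cover counting error only.

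**Figure D1:**
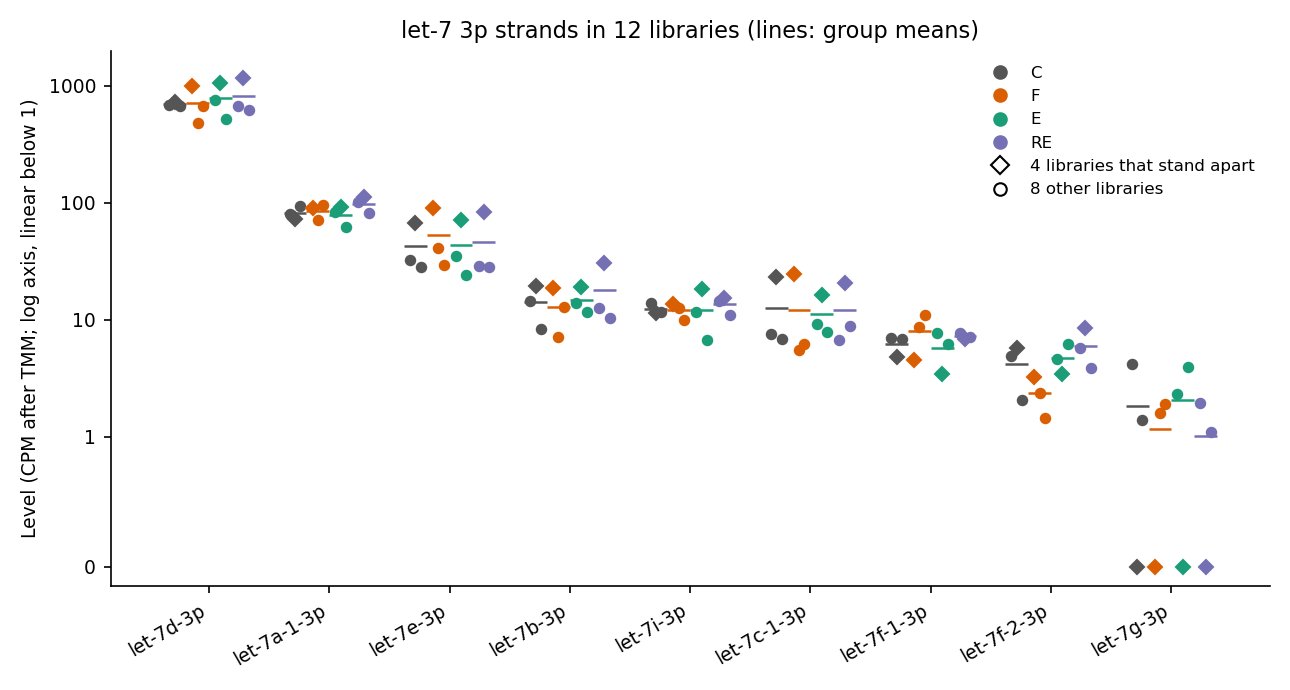
Level of the 9 let-7 passenger strands in each library, in CPM after TMM scaling on a logarithmic axis that is linear below 1. Points are libraries coloured by group, diamonds mark the 4 libraries that stand apart, and short lines are group means. let-7d-3p lies at 485 to 1162 CPM, above the other strands in every library, and let-7g-3p is at 0 in the 4 libraries.

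The question of how uneven the arms are was answered by comparing each passenger strand with the 5p strand of its own precursor. Where precursors have the same 5p sequence (let-7a, let-7c and let-7f), the 5p tags cannot be divided between them, and the whole 5p count was used. The passenger strand was lower than the 5p strand in 12 of 12 libraries for each of the 10 precursors (two-sided exact permutation test by sign flips, p = 0.000488 for each, the smallest value that 12 libraries can give, and 0.000488 after adjustment over the 10 tests). The 5p arm was known to give the guide, so these p values show only that this order held in every library. The 10 tests are not separate, since let-7a-1 and let-7c-2 use the same 3p tags and some precursors the same 5p tags. The mean log2 ratio of 3p to 5p tags, with 0.5 added to each, ranged from -3.28 ± 0.52 (SD, n = 12) for let-7d to -13.64 ± 0.71 for let-7f-2 among the 9 precursors with 3p tags in every library. For let-7g the value depends on the number added, since 4 libraries have 0 tags: the mean was -16.52 with 0.5 added and -16.06 with 1, and in the 8 libraries with tags it was -15.46.

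Only let-7d had a passenger share above 1% of the tags of its 2 arms. The share of let-7d-3p was 11.97%, 5.38% and 11.5% in C, 5.97%, 9.62% and 11.9% in F, 14.0%, 7.24% and 10.3% in E, and 12.4%, 6.05% and 10.2% in RE. The 95% Wilson intervals of single libraries were narrow, for example 5.13% to 5.65% in C replicate 2 and 11.3% to 12.7% in C replicate 1. The median share was 10.2%, or 8.79 guide tags for each passenger tag. The median share was 0.717% for let-7a-1, 0.506% for let-7e, 0.353% for let-7c-2, 0.137% for let-7b, 0.0389% for let-7c-1, 0.0162% for let-7i, 0.0142% for let-7f-1, 0.00812% for let-7f-2 and 0.00131% for let-7g. The log2 ratio of let-7d was above that of each of the 9 other precursors in 12 of 12 libraries, by 4.15 ± 0.43 (SD) against let-7e and up to 10.36 ± 0.74 against let-7f-2 among precursors with 3p tags in every library (two-sided exact permutation test, p = 0.000488 for each of 9 pairs, adjusted p = 0.000488, the smallest that 12 libraries can give). Against let-7g the difference was 13.24 with 0.5 added to each count, 12.78 with 1 added and 12.50 in the 8 libraries with let-7g-3p tags. The comparisons with let-7d were set with earlier results of these data known, and let-7d has the highest share in them. Their p values therefore give no independent support and show only that the order held in every library.

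Within the chromosome 13 locus the passenger shares thus spanned a wide range in the same libraries. The let-7d ratio stood above that of let-7f-1, whose hairpin is in the same transcript, by 9.66 ± 0.44 on the log2 scale, and above that of let-7a-1 by 4.26 ± 0.38 (SD, n = 12). The let-7a-1-3p tags include those of the identical let-7c-2-3p from chromosome 15, and the let-7a guide is not divided between its precursors, so the let-7a-1 value is not that of this hairpin alone. The let-7f guide is encoded by 2 precursors, and the let-7f-1 ratio is therefore lower than that of the let-7f-1 hairpin alone would be. Its passenger tags numbered only 5 to 23 in a library beside 44950 to 141421 guide tags.

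**Figure D2:**
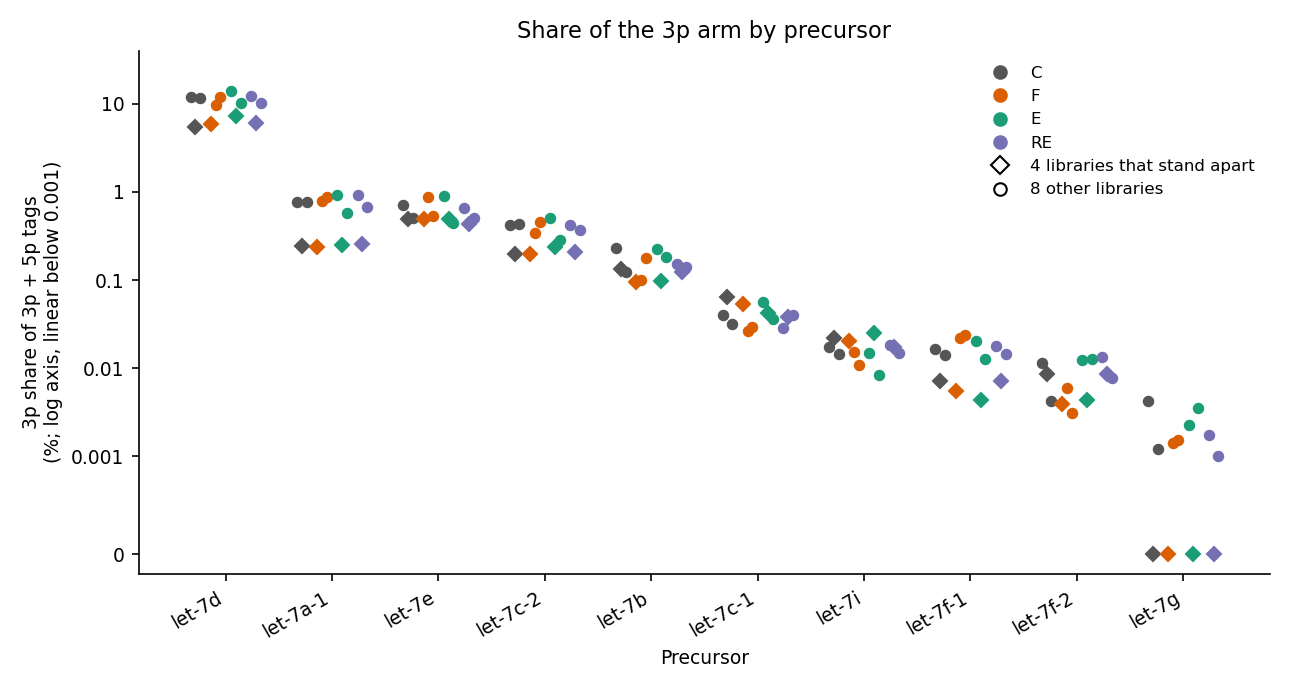
Share of the 3p strand in the 3p and 5p tags of each precursor, in percent on a logarithmic axis that is linear below 0.001. Points are the 12 libraries, coloured by group, with diamonds for the 4 libraries that stand apart. Median shares run from 10.2% for let-7d down to 0.00131% for let-7g, and for let-7a-1 and let-7d the diamonds lie below all circles.

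Other miRNAs gave a scale for this asymmetry. Both arms had a mean count of at least 10 for 111 arm pairs, 8 of them of let-7 precursors. The minor arm was the 3p arm in 8 of the 8 let-7 pairs and in 51 of the 103 others. The median share of the minor arm, over all libraries summed, was 0.217% for the let-7 pairs and 8.63% for the others, and a share under 1% was found for 7 of the 8 let-7 pairs and 18 of the 103 others. Ordered from the lowest minor-arm share, let-7f-1 was number 1 and let-7i number 2 of the 111 pairs, while let-7d, at 8.24%, was number 58. These counts describe the 111 pairs that passed the count limit, of 260 listed, and no test was made of the list. With at least 10 tags needed on the minor arm, a share under 1% can appear only beside an abundant major arm. The let-7 guides are abundant, so part of the contrast with the other pairs may come from this limit.

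**Figure D3:**
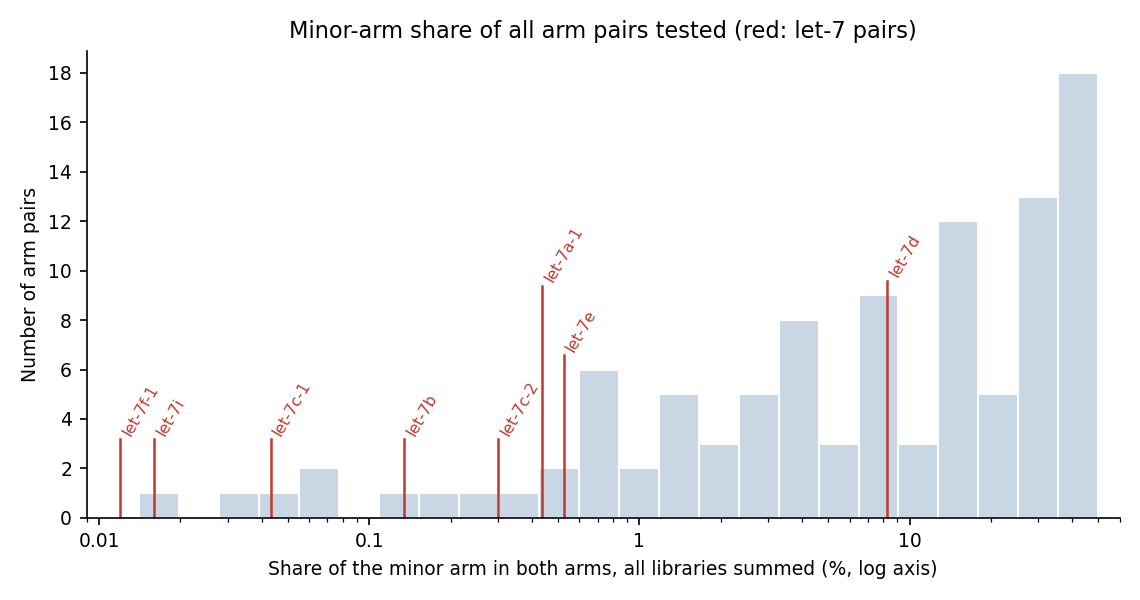
Histogram of the share of the minor arm for the 103 other arm pairs, in percent on a logarithmic axis, with the height giving the number of pairs. Red lines mark the 8 let-7 pairs, and the height of a red line has no meaning. let-7d lies at 8.24%, among the other pairs, and the remaining let-7 pairs lie under 1%.

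Passenger and guide strands differed between the library sets to different extents. The mean of let-7d-5p was 15023 CPM in the 4 libraries and 4916 CPM in the other 8, with no overlap (12748 to 18034 against 4534 to 5522), and that of let-7d-3p was 987 against 638 CPM, with overlap. On the log2 scale the 4 libraries stood higher by 1.61 for let-7d-5p and by 0.63 for let-7d-3p. For let-7a the guide was higher by 1.804 and the passenger let-7a-1-3p by 0.13. The passenger of let-7e was higher by 1.34, beside 1.73 for its guide, that of let-7b by 0.94 beside 1.496, and that of let-7c-1 by 1.53 beside 1.07. The let-7f guide was higher by 0.87, whereas let-7f-1-3p was lower, with a difference of -0.67. For let-7i the guide differed by -0.22 and the passenger by 0.35. With library totals or median-of-ratios size factors in place of TMM each of these differences kept its sign, although library totals moved the median of the tested miRNAs from 0.05 to 0.23.

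The passenger share stood apart between the sets for 4 of the 8 let-7 pairs tested and overlapped for the other 4. For let-7d it was 5.38% to 7.24% in the 4 libraries and 9.62% to 14.0% in the other 8. For let-7a-1 it was 0.239% to 0.256% against 0.579% to 0.931%, for let-7c-2 0.198% to 0.237% against 0.287% to 0.508%, and for let-7f-1 0.00436% to 0.00712% against 0.0129% to 0.0236%. The pairs of let-7a-1 and let-7c-2 use the same 3p tags, so that strand is counted under both. The count of 4 of 8 is close to the share of all 111 pairs without overlap (46.8%), and all 4 were lower in the 4 libraries, as were 23.4% of all pairs. Of the pairs that overlapped, let-7c-1 had a mean share of 0.0496% in the 4 libraries and 0.0361% in the other 8, let-7i 0.0213% and 0.0143%, let-7b 0.113% and 0.166%, and let-7e 0.477% and 0.642%. In levels, 3 of the 7 passenger strands tested (let-7b-3p, let-7c-1-3p and let-7e-3p) did not overlap, beside 41.8% of the 431 miRNAs tested. The median set difference of the log2 ratio of 3p to 5p was -0.74 over the 8 let-7 pairs and 0.10 over the 103 others. The 3p strand was the minor arm in all 8 let-7 pairs but in only 51 of the others, so signs are not comparable. Without regard to sign, the median size of the difference was 0.763 over the let-7 pairs and 0.707 over the others. Since both strands of a pair were counted in the same library, these ratios do not depend on the scaling of the libraries.

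**Figure D4:**
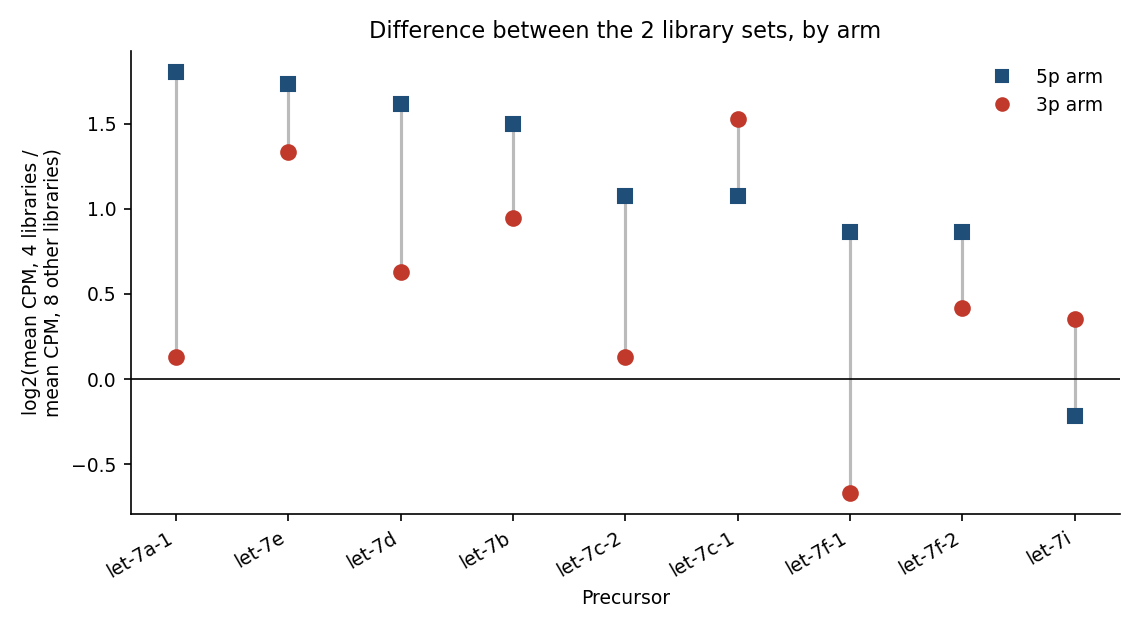
Difference between the 4 libraries and the other 8 in mean level, as log2 of the ratio of mean CPM, for the 5p strand (squares) and the 3p strand (circles) of 9 precursors. let-7g is left out because its 3p strand is at 0 in the 4 libraries. The circle lies below the square for 7 precursors and above it for let-7c-1 and let-7i.

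Whether training changed the passenger strands was asked in 6 comparisons between the groups and in 1 test of any difference among the 4. Of the 9 strands, 7 passed the filter on low counts, and let-7f-2-3p and let-7g-3p did not. In F against C, 0 of the 7 had an adjusted p under 0.05 (edgeR quasi-likelihood test, Benjamini-Hochberg adjustment over 431 miRNAs), as did 0 of all miRNAs (0%). The same held for E against C, RE against C, E against F, RE against F and RE against E, with 0 of the 7 and 0% of all miRNAs in each, and for the test over 4 groups. DESeq2 also called 0 of the 7 in each, beside 0.233% of all miRNAs in F against C and in RE against E, 0.698% in RE against C and over 4 groups, and 0% in the other comparisons. Without adjustment, 0 of the 7 had an edgeR p under 0.05 in any comparison, and 7 to 24 of the 431 miRNAs did. The study's methods give other limits, a change of 1 or more on the log2 scale in either direction and a p under 0.05 with no adjustment. By these 0 of the 7 passed, beside 1.16% of all miRNAs in F against C, 0.696% in E against C, 2.78% in RE against C, 1.62% in E against F, 0.696% in RE against F and 0.928% in RE against E. For miRNAs in RE against E the study's results also use a lower limit of 0.58 on the log2 scale, which 0 of the 7 and 1.62% of all miRNAs passed.

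For let-7d-3p the log2 fold change was 0.05 ± 0.34 (SE) in F against C, 0.17 ± 0.34 in E against C, 0.23 ± 0.34 in RE against C and 0.06 ± 0.34 in RE against E (adjusted p at least 0.997 in each, edgeR). The strand with the smallest error, let-7a-1-3p, had 0.06 ± 0.23 in F against C, -0.06 ± 0.23 in E against C, 0.25 ± 0.23 in RE against C and 0.32 ± 0.23 in RE against E. That last value, with an adjusted p of 0.999 (edgeR), was the one nearest to the threshold among all members and comparisons before adjustment. Over the 7 strands the fold changes ran from -0.13 for let-7b-3p to 0.40 for let-7f-1-3p in F against C, from -0.21 for let-7c-1-3p to 0.17 for let-7d-3p in E against C, and from -0.09 for let-7c-1-3p to 0.32 for let-7b-3p in RE against C. In E against F they ran from -0.50 for let-7f-1-3p to 0.19 for let-7b-3p, and in RE against F from -0.20 for let-7e-3p to 0.45 for let-7b-3p. In RE against E all 7 estimates were above 0, from 0.06 to 0.33, with a median of 0.15 beside 0.05 over all miRNAs.

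The standard errors of the members ran from 0.23 to 0.71. The common dispersion of the counts, a measure of the spread between libraries of a group, was 0.184 with groups alone and 0.0294 with a term for the library set. With that term, and in the 8 other libraries alone, 0 members were called in each comparison, beside 1.62% of all miRNAs in RE against C and 0.232% in E against F, in RE against E and over 4 groups with the term, and 0.943% in RE against C and over 4 groups, 0.708% in RE against E and 0.236% in E against F in the 8 libraries. In the 8 libraries the RE against E estimates were above 0 for 4 of the 7 strands and below for 3. With 3 mice a group and adjustment over 431 miRNAs, a difference has to be well above these errors to be called. The let-7a-1-3p value of 0.32 in RE against E, above its error of 0.23, was not. The absence of calls therefore does not exclude changes of the size of these errors or well above them. For strands with errors near 0.71 such changes include a log2 fold change of 1. In bulk tissue, fewer cells of a type and less RNA per cell cannot be told apart.

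**Figure D5:**
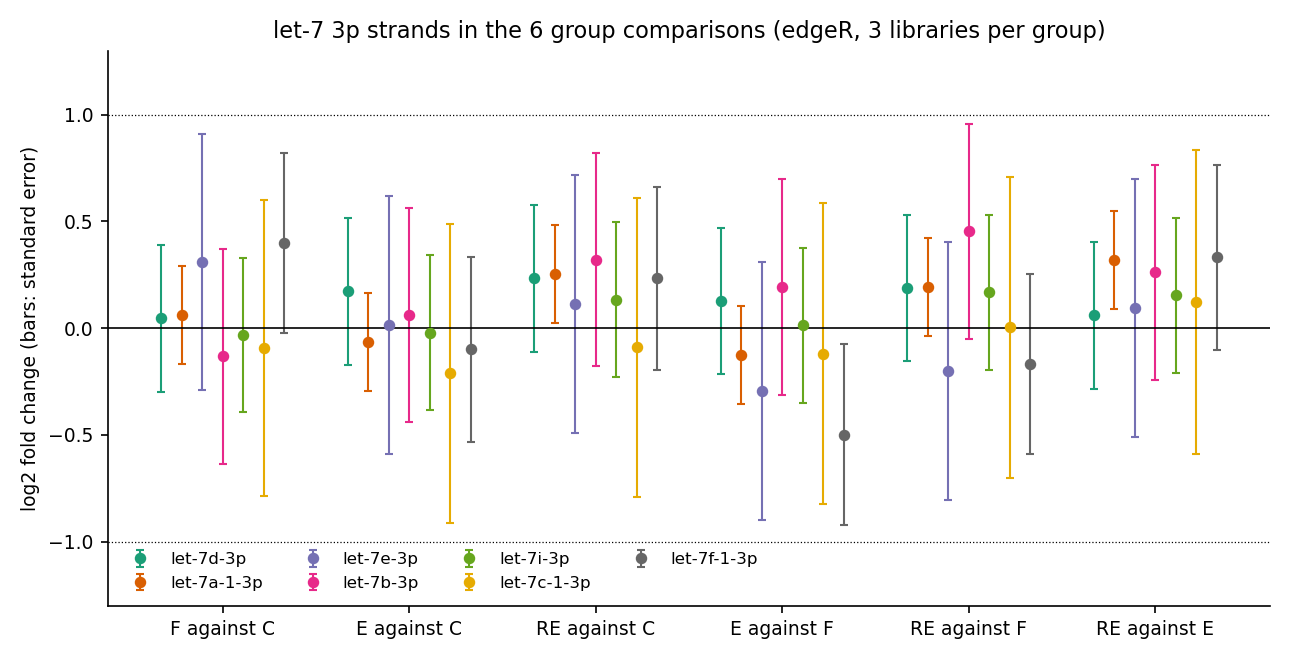
log2 fold change of the 7 tested passenger strands in the 6 comparisons, from edgeR with all 12 libraries. Points are estimates, bars are 1 standard error on each side, and dotted lines mark a log2 fold change of 1 in either direction. Estimates lie between -0.50 and 0.45, and 0 of them passed the test.

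The ratio of the arms gave the same count. Of the 8 let-7 pairs 0 had an adjusted p under 0.05 in each of the 6 comparisons and in the test over 4 groups (limma on log2 arm ratios, 111 pairs), as had 0% of all pairs, and 0 had an unadjusted p under 0.05, as had 0 of all 111 pairs in 5 comparisons and 2 in E against F. For let-7d the difference in log2 ratio was -0.05 ± 0.47 (SE) in F against C, 0.18 ± 0.47 in E against C, 0.01 ± 0.47 in RE against C and -0.17 ± 0.47 in RE against E. The largest estimates were 0.40 ± 0.39 for let-7b and -0.40 ± 0.69 for let-7f-1, both in E against F. In the 8 other libraries alone, let-7c-1 in E against F had 0.67 ± 0.29 with an unadjusted p of 0.0495 and an adjusted p of 0.781 (limma), and 0 let-7 pairs were called, beside 1.83% of all pairs in RE against E and 0% in the other comparisons.

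The strands below the filter are described by their values. let-7f-2-3p was at 1.44 to 3.23 CPM in F (3 to 5 tags) and 3.42 to 6.17 CPM in E (5 to 11 tags). It was at 3.86 to 8.46 CPM in RE (6 to 11 tags), while C, at 2.07 to 5.75 CPM, overlapped all 3. The highest F library and the lowest E library had 5 tags each, so F and E were apart only after library scaling. How many of all miRNAs split these groups in this way was not counted. In an edgeR fit with no filter its log2 fold change in RE against F was 1.33 ± 0.58 (SE), with an adjusted p of 1 and an unadjusted p of 0.0407. In that fit it passed the limits of the study's methods, as did 1.28% of the 702 miRNAs tested. With 3 to 12 tags in a library, and a sequence 1 base from the more abundant let-7a-1-3p, this value is uncertain.

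Other let-7 and neighbouring strands were compared with the same tests. Of the 11 guide strands listed (let-7a to let-7k and miR-98-5p), 9 were tested, and 0 rose and 0 fell in each comparison. Their median log2 fold change was 0.17 in F against C, 0.04 in E against C, 0.30 in RE against C, -0.09 in E against F, 0.17 in RE against F and 0.26 in RE against E, beside 0.05, 0.01, 0.06, -0.08, 0.0012 and 0.05 over all miRNAs. In the 8 other libraries alone it was 0.014 in F against C, -0.12 in E against C, -0.014 in RE against C, -0.14 in E against F, 0.098 in RE against F and 0.12 in RE against E. Of the 11 listed strands of miR-99a, miR-99b, miR-100, miR-125a and miR-125b, which share primary transcripts with let-7 genes in the mouse, 8 were tested, and again 0 rose and 0 fell. The passenger miR-98-3p, which has the seed of let-7a-1-3p, was at 7.14 to 13.4 CPM, beside a mean of 699.8 CPM for its guide miR-98-5p. miR-99b-3p, from the cluster of let-7e, was at 42.1 to 49.2 CPM in the 4 libraries and at 76.4 to 118 CPM in the other 8, whereas let-7e-3p was at 68.0 to 90.5 against 24.1 to 41.3 CPM. The 5p strands of both neighbours stood in the order of let-7e-3p, with miR-99b-5p at 4121 to 4919 against 2568 to 3891 CPM and miR-125a-5p at 1525 to 1999 against 427 to 575 CPM.

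Likeness over the libraries was measured as Pearson's r of log2 CPM after the mean of each library set was subtracted, among 414 miRNAs outside the family, and is a description over 12 libraries that share these sets and their depth. The miRNAs most like let-7d-3p were miR-484 (r = 0.85) and miR-130b-5p (r = 0.84), and its own guide let-7d-5p had r = 0.60. The miRNAs most like let-7a-1-3p were the neuron-enriched miR-128-3p (r = 0.83) and miR-26a-5p (r = 0.82), and its guide let-7a-5p had r = 0.60. For let-7e-3p they were miR-222-3p (r = 0.70) and a miRNA predicted by the authors on chromosome 4 (r = 0.69), and its guide let-7e-5p had r = -0.15. Without the subtraction, r with the own guide was 0.84 for let-7d-3p, 0.37 for let-7a-1-3p and 0.91 for let-7e-3p, values that include the difference between the sets.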

How the data were processed

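Small RNA of 12 BLA samples was sequenced for 50 cycles. The authors trimmed adapters with Cutadapt, aligned reads of at least 15 nt to mouse precursors with Novoalign, predicted further miRNAs with miRDeep2 and deposited raw tag counts for each mature miRNA. The deposited normalized score, a tag count per 1000000 rounded to whole numbers by the authors, was used for alternatives only. The submitters' processing notes name CASAVA 1.8 and hg38, a human build. Of the miRNA reference, the version was not stated in any source used here. Columns of unknown sample numbered 0.

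Of 1169 lines 109 were repeats and were counted once. In R 4.3.3, the counts entered the quasi-likelihood test of edgeR 4.0.16 (filterByExpr with a minimum count of 10, TMM, all 12 libraries in 1 fit), and log2((3p + 0.5)/(5p + 0.5)) of pairs with a mean count of at least 10 on each arm with limma 3.58.1. Exact permutation tests used scipy 1.17.1. Principal components used a prior count of 2. DESeq2 1.42.0, other scalings, filters, pseudocounts, a replicate block and leaving out each library were alternatives, as were, chosen after seeing the data, the library-set term and the 8 libraries alone. Scripts were tested on simulated data. Hosts come from GENCODE M21 on GRCm38.

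Named miRNAs are all let-7 -3p strands, their 5p strands, miR-98, the miR-99, miR-100 and miR-125 families and, for members with a mean count of at least 50, the 2 miRNAs most like them. Members and lists were chosen with earlier results of these data known. Counts of different replicates of a group differed by more than sampling noise (34.4 to 1005 as chi-square divided by its degrees of freedom). Totals of 1093194 to 2353896 tags put 3 tags at 1.44 to 2.90 CPM.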

Additional observations from a re-analysis of the deposited data

How the results depend on the processing

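The 33 main results (0 passenger strands and 0 arm ratios called in each comparison, the lower 3p arm of every precursor, and the higher let-7d ratio) kept their direction and their side of the threshold under all 556 alternatives run. Given their size, the log2 differences of the arm order and the let-7d ratio could hardly have been reversed by these settings. The counts of 0 started from adjusted p values of at least 0.99 in the main fits (edgeR and limma). The number of alternatives is therefore no measure of robustness. Library totals in place of TMM moved the median of all miRNAs by -0.11 in F against C, -0.16 in RE against C and -0.15 in RE against E. Estimates that were not called changed sign in some settings, and the cause was not tested. In the 8 other libraries alone, the log2 fold change became 0.20 for let-7c-1-3p and -0.11 for let-7d-3p in E against C, 0.10 for let-7c-1-3p and -0.040 for let-7b-3p in RE against C, and the let-7f-1 ratio difference in RE against E -0.019. let-7d-3p in RE against E became -0.11 with library totals, -0.0070 with no filter, -0.014 with the 2 groups alone and -0.12 with limma on the authors' normalized values.

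Leaving out 1 library at a time, the log2 fold change ran from -0.50 to 0.17 for let-7b-3p in F against C, from -0.62 to 0.65 for let-7c-1-3p and from -0.14 to 0.44 for let-7d-3p in E against C, from -0.70 to 0.70 for let-7c-1-3p and from -0.31 to 0.60 for let-7b-3p in RE against C, from -0.069 to 0.52 for let-7b-3p in E against F, from -0.88 to 0.38 for let-7e-3p and from -0.16 to 0.76 for let-7b-3p in RE against F, and from -0.28 to 0.30 for let-7d-3p in RE against E. The difference in log2 arm ratio ran from -0.10 to 0.93 for let-7f-1 in F against C, from -0.63 to 0.15 for let-7i and from -0.23 to 0.45 for let-7d in E against C, from -0.30 to 0.45 for let-7f-1 in RE against C, from -1.07 to 0.21 for let-7f-1 in E against F, from -0.40 to 0.039 for let-7e in RE against F, and from -0.41 to 0.68 for let-7f-1 in RE against E.

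Correlations of same-numbered C, F and E libraries ran from -0.724 to 0.736. The difference between the library sets was not removed from them. Replicate 2 of C and of E, both among the 4 libraries, had 0.736, and replicate 1 of C and of F, from different sets, had -0.724. These values therefore cannot tell whether replicate numbers pair the libraries. With the number as a replicate block in C, F and E, 0 strands and 0 ratios were called, and the let-7b-3p log2 fold change in F against C was -0.09. RE has only number 3 in common with the other groups, so no block was fitted there. Depth limits the strands with under 50 tags in a library.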
